A study of Mus musculus with 12 samples.

Results

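Regulatory T cells (Treg) were compared with effector CD4+ T cells (Teff) after both had been stimulated through the T cell receptor in the same culture. The comparison holds 4 of the series' 12 arrays, 2 of anti-CD3-CD28 Treg cells and 2 of anti-CD3-CD28 Teff cells, chosen by the sample titles. It asks which transcripts separate the cell types once both have been activated. Per the labels, total splenic CD4+ cells of 8-week-old Foxp3.eGFP mice on the C57BL/6 background were treated for 3 days with monoclonal antibodies to CD3 and CD28 at 2 µg/ml each, and Foxp3+ Treg and Foxp3- Teff cells were then sorted for RNA. The series also holds 2 arrays each of control Treg and Teff cells, which were fresh and untreated, and of Treg and Teff cells kept for 3 days with the soluble ligands OX40L, at 5 µg/ml, and JAG1, at 1 µg/ml. All 6 groups share the reporter strain and age. The Treg cells were those that held Foxp3 at the sort, and the labels do not say which cells held it when culture began. The replicates are called B where the title ends in that letter and 1 where it has no suffix. No label says that they came from separate mice or cultures, so the p-values rest on the spread between these samples alone, and that spread may be technical.

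Treg cells are CD4+ T cells that restrain immune responses. Their identity rests on the transcription factor Foxp3, and they are known for high levels of the IL-2 receptor, of CTLA-4 and of several TNF receptors, and for low secretion of IL-2 and of T helper cytokines. Antibodies to CD3 stand in for antigen at the T cell receptor, and antibodies to CD28 give the costimulatory signal. Conventional CD4+ T cells treated this way divide and begin to make cytokines, and they begin to express CD25, CTLA-4 and OX40, which resting Treg cells already carry.

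Each value is a log2 intensity, and a difference is the Treg mean minus the Teff mean on the log2 scale, with its standard error (SE) from limma over 12 arrays and 2 arrays in each group. Of 22180 genes tested, 2003 were higher in Treg cells (9.03%) and 642 lower (2.89%) at a Benjamini-Hochberg adjusted p under 0.05. Of these, 1062 and 320 differed at least 2-fold. For all 2645 called genes the Treg arrays lay wholly above or wholly below the Teff arrays, and the same held for 14598 of all genes (65.8%). The OX40L-JAG1 Teff pair differed from the other 10 arrays. Their replicate difference had a standard deviation (SD) of 0.81 over genes, against 0.234 to 0.362 in the other groups, and they widened the spread that all groups share. With them left out, 4045 genes were higher (18.2%) and 2317 lower (10.4%). Leaving out one of the 4 arrays compared left 688 calls without Treg replicate 1, 723 without Treg replicate B, 802 without Teff replicate 1 and 1628 without Teff replicate B, and 552 genes (411 higher, 141 lower) were called under each of these 4 omissions.

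The sign of a difference went with the level of the gene. With the genes in 5 bins of equal size by level, the median difference was -0.19 in the dimmest bin and 0.44 in the brightest, where 1062 of 4436 genes were higher in Treg cells (23.9%) and 172 lower (3.88%). In fresh cells the brightest bin had a median difference of -0.18. By the interaction test, 27.0% of its genes had a higher signed difference after stimulation than in fresh cells, and 4.91% a lower one. A negative fresh difference that became less negative also counts as higher. Values in the Treg arrays were also more widely spread over genes (SD 2.19 in both) than in the Teff arrays (1.95 and 2.01). Quantile normalization brought the medians of the dimmest and brightest bins to -0.0048 and 0.060, and called 692 genes higher (3.12%) and 424 lower (1.91%). The share of calls that were higher was 75.7% as deposited, 62.0% after quantile normalization, 87.4% with array medians made equal, and 63.6% with the OX40L-JAG1 Teff pair left out. The median over all genes was -0.05 as deposited and 0.10 with equal medians. Each list below therefore has its counts with that pair left out and after quantile normalization beside it, and its shares are to be read against the 9.03% and 2.89% of all genes and, for bright genes, against those of the brightest bin. Counts with that pair left out are to be read against 18.2% and 10.4% of all genes, and those after quantile normalization against 3.12% and 1.91%. Shares of the brightest bin are not given for these alternatives. Detection calls were not used here. A group mean under 4.87, the lowest median of any array, is called dim, and no fold is given against it.

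Foxp3, by which the cells were sorted, checked the labels. Its log2 levels were 11.22 and 11.02 in the Treg arrays and 5.58 and 5.72 in the Teff arrays. The groups lay far apart, and the difference was 5.47 ± 0.21 (SE; adjusted p = 4.72e-07), a 44.3-fold higher intensity in Treg cells. In fresh cells the difference was 4.70, and the change of 0.77 between the 2 conditions did not pass the test (adjusted p = 0.109). Markers of CD4+ T cells were bright in all 4 arrays: the mean log2 level of 8 such genes was 10.74 and 10.65 in the Treg arrays and 10.20 and 10.18 in the Teff arrays. Of these, Cd3e, Cd5 and Cd2 were higher in Treg cells and none was lower (5 higher and 1 lower with the OX40L-JAG1 Teff pair left out, 3 and 1 after quantile normalization). Cd4 itself had log2 levels of 10.84 and 10.48 in the Treg arrays and 9.86 and 9.97 in the Teff arrays, with a difference of 0.74 ± 0.22 (SE; adjusted p = 0.0507).

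Most Treg signature genes separated the stimulated cells. Of 30 measured signature genes, 28 were higher in Treg cells and none lower, against a background of 9.03% and 2.89% of all genes, with a median log2 difference of 1.90 beside -0.05 over all genes. The mean log2 level of the 30 genes was 9.59 and 9.53 in the Treg arrays and 7.45 and 7.58 in the Teff arrays. In fresh cells 28 were also higher, with a median of 2.54. The list was drawn from general knowledge of Treg cells with earlier results of these arrays known, so its direction is a description. Signature counts were 29 higher and 0 lower once the OX40L-JAG1 Teff pair was left out, 23 and 0 after quantile normalization, and 19 and 0 for calls that held without each of the 4 arrays in turn.

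Among transcription factors of the signature, Ikzf2, which encodes Helios, had log2 levels of 10.67 and 10.84 in the Treg arrays and 7.31 and 7.57 in the Teff arrays. Its difference of 3.32 ± 0.26 (SE; adjusted p = 3.24e-05) corresponds to 9.96-fold, close to the fresh value of 3.40. Ikzf4, which encodes the Foxp3 partner Eos, had log2 levels of 9.03 and 8.90 in the Treg arrays and 6.29 and 6.52 in the Teff arrays, with a difference of 2.56 ± 0.18 (SE; adjusted p = 1.76e-05). Both genes were higher in each Treg array than in either Teff array. Flicr, a noncoding RNA gene beside Foxp3, was dim in Teff cells: its log2 levels were 7.68 and 7.82 in the Treg arrays and 4.27 and 4.93 in the Teff arrays, and its difference was 3.15 ± 0.33 (SE; adjusted p = 0.000212).

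Several signature genes encode surface molecules. Gpr83, a G protein-coupled receptor known for its expression in Treg cells, had log2 levels of 9.15 and 9.14 in the Treg arrays and 4.05 and 4.64 in the Teff arrays. Teff cells were dim for it, and its log2 difference of 4.80 ± 0.36 (SE; adjusted p = 2.30e-05) exceeded the fresh value of 2.86 by 1.94 (adjusted p = 0.0307). Izumo1r, the folate receptor 4 of Treg cells, had log2 levels of 9.40 and 9.26 in the Treg arrays and 6.01 and 6.13 in the Teff arrays. Its difference of 3.25 ± 0.27 (SE; adjusted p = 3.70e-05) was 9.55-fold, and larger than in fresh cells by 1.55 (adjusted p = 0.0230). Nt5e, which encodes CD73, the ectoenzyme that makes adenosine from AMP, had log2 levels of 9.45 and 9.42 in the Treg arrays and 6.42 and 6.54 in the Teff arrays, 7.75-fold apart (difference 2.95 ± 0.24 SE, adjusted p = 3.24e-05). Entpd1 (CD39), the ectoenzyme that acts before it, differed less, by 0.95 ± 0.21 (SE; adjusted p = 0.0132). Lrrc32 encodes GARP, which holds latent TGF-beta at the Treg surface. Its log2 levels were 11.16 and 10.57 in the Treg arrays and 7.89 and 8.15 in the Teff arrays, and the difference of 2.84 ± 0.23 (SE; adjusted p = 3.24e-05) was smaller than the 4.95 of fresh cells (change -2.10, adjusted p = 0.00255). Itgae (CD103), Itgb8 and Nrp1 followed with log2 differences of 2.13 ± 0.18, 2.36 ± 0.37 and 1.92 ± 0.25, and the opioid peptide gene Penk and the tetraspanin gene Cd81 with 2.45 ± 0.28 and 2.24 ± 0.24.

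Several signature genes that activation is known to induce separated the cell types less than in fresh cells. Il2ra, which encodes CD25, had log2 levels of 12.86 and 12.99 in the Treg arrays and 11.36 and 11.47 in the Teff arrays. The groups did not overlap, but the difference of 1.51 ± 0.27 (SE; adjusted p = 0.00557), or 2.85-fold, was below the fresh value of 4.45 (change -2.94, adjusted p = 0.00126). Its call was lost without Teff replicate 1 or without Treg replicate B. Ctla4, the coinhibitory receptor that competes with CD28, had log2 levels of 10.74 and 10.76 in the Treg arrays and 9.77 and 9.84 in the Teff arrays, a difference of 0.94 ± 0.23 (SE; adjusted p = 0.0232) and a fresh difference of 3.45 (change -2.51, adjusted p = 0.00118). Tnfrsf4 (OX40) had log2 levels of 11.60 and 11.55 in the Treg arrays and 9.91 and 10.01 in the Teff arrays, with 1.61 ± 0.25 after culture and 3.54 before it (change -1.93, adjusted p = 0.00650). Ctla4 lost its call whichever of the 4 arrays was left out, and Tnfrsf4 kept it under each omission. The 2 signature genes that were not called were of this kind. Rgs1, a regulator of G protein signalling, had log2 levels of 9.98 and 9.90 in the Treg arrays and 9.91 and 10.07 in the Teff arrays, so the groups overlapped, against a fresh difference of 3.47 (change -3.51, adjusted p = 0.000965). Cd83 had log2 levels of 6.82 and 7.01 in the Treg arrays and 6.19 and 6.26 in the Teff arrays, a difference of 0.69 ± 0.23 (SE; adjusted p = 0.0806) and a fresh difference of 2.86 (change -2.17, adjusted p = 0.00257). Over the 30 genes, the interaction test called the signed difference higher than in fresh cells for 3 and lower for 7. It called 10.1% of all genes in the first direction and 2.94% in the other.

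**Figure D1:**
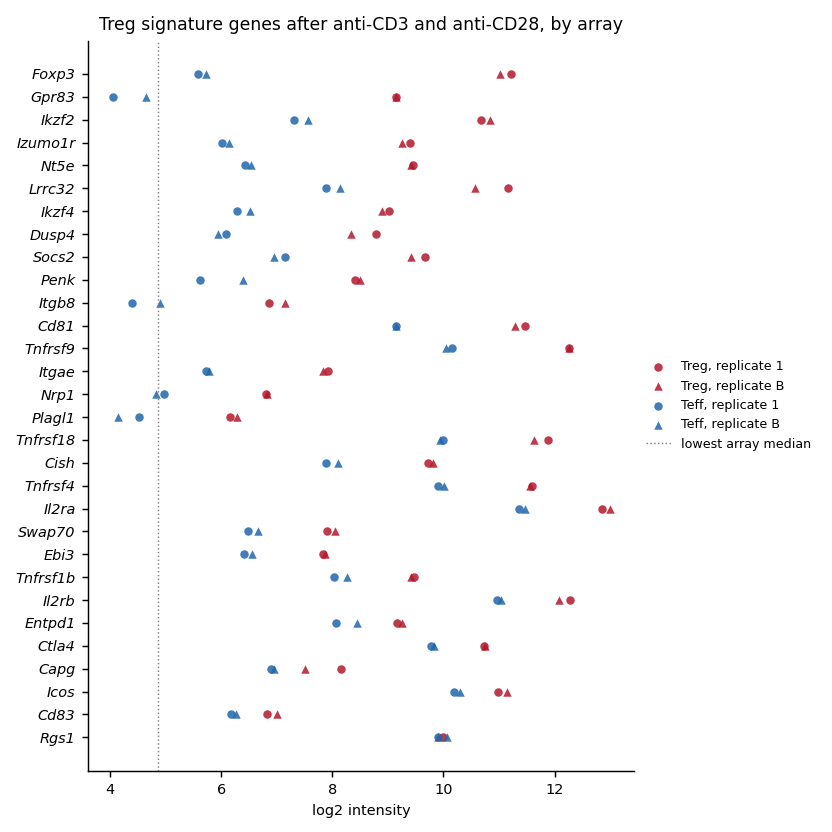
Log2 intensity (x axis) of 30 Treg signature genes (y axis) in the 2 Treg and 2 Teff arrays after anti-CD3 and anti-CD28. Circles are replicate 1 and triangles replicate B, and the dotted line marks the lowest array median of 4.87. The Treg points lie to the right of the Teff points for Foxp3 at the top, and they mix for Rgs1 at the bottom.

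**Figure D2:**
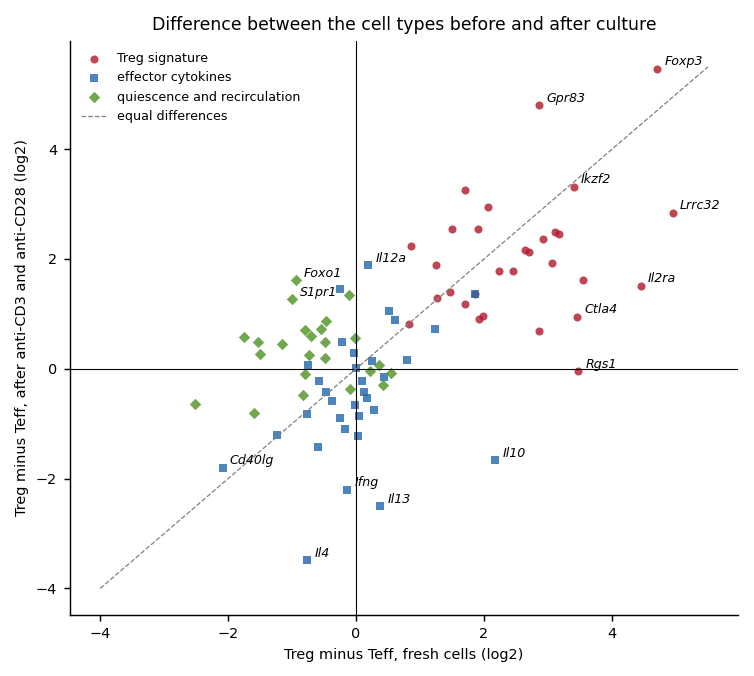
Log2 difference of Treg minus Teff in fresh cells (x axis) and after anti-CD3 and anti-CD28 (y axis) for signature, cytokine and quiescence genes, 1 point per gene. The dashed line marks equal differences. Il2ra, Ctla4 and Rgs1 lie under it, Il4, Il13 and Ifng lie far below 0 on the y axis, and Il10 lies right of 0 and below 0.

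The leading genes on each side include neighbours that moved together. On the X chromosome the start of Flicr lies 6.08 kb from that of Foxp3. On chromosome 9 Izumo1r starts 43.6 kb from Gpr83, and on chromosome 11 the cytokine genes Il4 and Il13, both higher in Teff cells, start 16.0 kb apart. Their promoters are shown because each pair shares its direction. Foxp3 and Il4 each have a second start in RefSeq, and distances are from the upstream one. The windows run from 250 bases before to 50 after a RefSeq start in GRCm38.p6. Capitals mark matches on either strand to 7 motifs: forkhead TGTTTAC, AP-1 TGANTCA, STAT5 TTCNNNGAA, Runx TGTGGTT, T-box TCACACCT, E2F TTTCCCGC and the TATA letters TATAAA, the last added after the data were seen.
Foxp3 (chrX:7579426-7579725, plus strand): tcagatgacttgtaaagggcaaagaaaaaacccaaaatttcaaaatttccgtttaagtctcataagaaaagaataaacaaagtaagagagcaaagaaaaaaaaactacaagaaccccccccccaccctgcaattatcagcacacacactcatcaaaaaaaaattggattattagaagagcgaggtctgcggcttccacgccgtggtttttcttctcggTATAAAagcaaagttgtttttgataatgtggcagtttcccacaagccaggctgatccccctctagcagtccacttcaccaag
Foxp3, second start (chrX:7580233-7580532, plus strand): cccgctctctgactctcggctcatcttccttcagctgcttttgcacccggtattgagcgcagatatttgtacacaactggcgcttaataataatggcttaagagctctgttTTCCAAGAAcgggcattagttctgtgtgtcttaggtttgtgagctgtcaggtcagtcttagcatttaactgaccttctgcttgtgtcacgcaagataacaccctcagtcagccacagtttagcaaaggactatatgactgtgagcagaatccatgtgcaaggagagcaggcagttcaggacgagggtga
Flicr (chrX:7573350-7573649, plus strand): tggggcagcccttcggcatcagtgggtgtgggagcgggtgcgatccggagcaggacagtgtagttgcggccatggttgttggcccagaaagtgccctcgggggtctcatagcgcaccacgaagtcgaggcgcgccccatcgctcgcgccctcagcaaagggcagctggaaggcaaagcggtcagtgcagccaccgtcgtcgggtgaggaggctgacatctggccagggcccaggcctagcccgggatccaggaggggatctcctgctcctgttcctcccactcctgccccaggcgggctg
Gpr83 (chr9:14859960-14860259, plus strand): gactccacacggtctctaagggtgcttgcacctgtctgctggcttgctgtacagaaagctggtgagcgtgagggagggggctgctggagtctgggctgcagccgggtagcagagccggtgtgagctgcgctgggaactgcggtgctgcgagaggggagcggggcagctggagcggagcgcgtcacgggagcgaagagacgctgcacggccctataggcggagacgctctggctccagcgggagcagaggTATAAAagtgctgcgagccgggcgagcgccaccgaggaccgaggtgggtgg
Izumo1r (chr9:14903718-14904017, minus strand): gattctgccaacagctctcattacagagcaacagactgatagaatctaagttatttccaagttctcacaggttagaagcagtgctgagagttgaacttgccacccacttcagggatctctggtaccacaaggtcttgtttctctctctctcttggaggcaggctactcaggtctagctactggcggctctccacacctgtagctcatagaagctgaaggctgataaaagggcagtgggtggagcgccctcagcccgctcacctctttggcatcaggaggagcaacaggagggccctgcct
Il4 (chr11:53618616-53618915, minus strand): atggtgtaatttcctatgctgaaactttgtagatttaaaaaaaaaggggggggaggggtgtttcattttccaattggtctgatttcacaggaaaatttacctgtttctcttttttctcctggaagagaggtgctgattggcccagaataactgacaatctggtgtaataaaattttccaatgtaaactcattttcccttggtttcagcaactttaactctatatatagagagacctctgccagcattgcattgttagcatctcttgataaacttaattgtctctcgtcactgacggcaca
Il4, second start (chr11:53617289-53617588, minus strand): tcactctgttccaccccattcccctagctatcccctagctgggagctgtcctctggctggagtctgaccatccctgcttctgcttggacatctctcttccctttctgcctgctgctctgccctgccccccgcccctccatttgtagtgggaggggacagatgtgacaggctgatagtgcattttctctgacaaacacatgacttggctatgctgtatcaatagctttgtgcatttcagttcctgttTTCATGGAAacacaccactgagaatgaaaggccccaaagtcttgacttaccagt
Il13 (chr11:53634653-53634952, minus strand): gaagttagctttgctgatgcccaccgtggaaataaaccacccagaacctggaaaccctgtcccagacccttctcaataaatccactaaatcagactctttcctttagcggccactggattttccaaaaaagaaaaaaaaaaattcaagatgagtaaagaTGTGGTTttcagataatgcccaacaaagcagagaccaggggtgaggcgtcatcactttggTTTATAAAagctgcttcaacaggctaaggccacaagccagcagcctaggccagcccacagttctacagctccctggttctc
The capitals in the upstream Foxp3 window are TATA letters that begin 32 bases before the start, and those in its second window a STAT5 match, TTCCAAGAA, that begins 139 bases before that start. The second Il4 window holds a STAT5 match, TTCATGGAA, that begins 4 bases before its start. The capitals in the Gpr83 window are TATA letters 1 base before the start. In the Il13 window they are 1 Runx match 91 bases before the start and 2 overlapping TATA matches, 1 on each strand, 31 and 29 bases before it. None of the 7 motifs occurs in the Flicr window, the Izumo1r window or the upstream Il4 window. Over genes with a promoter in the table, the TATA letters occurred in 8.03% of 1606 genes higher in Treg cells, in 16.6% of 397 lower genes and in 14.3% of all 16918. AP-1 letters occurred in 5.17%, 12.3% and 8.39% of these, and E2F letters in 3.30%, 0.756% and 1.61%. Shares lay closer together for forkhead (3.30%, 4.03% and 3.53%), STAT5 (8.78%, 8.56% and 9.13%), Runx (4.11%, 5.04% and 5.26%) and T-box (1.25%, 1.01% and 1.34%). These are counts of letters, and no binding was measured.

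The 25 largest rises, signature genes among them, had log2 differences from 2.49 to 5.47, and some did not separate fresh cells. Of the 25, 14 were also higher in fresh Treg cells and none was lower there, 15 differed from their fresh difference by the interaction test, and 24 kept their call without each of the 4 arrays in turn (Ly96 did not). Zdhhc23, a palmitoyltransferase gene, had log2 levels of 8.37 and 8.44 in the Treg arrays and 4.77 and 5.43 in the Teff arrays. Its difference was 3.31 ± 0.25 (SE; adjusted p = 2.64e-05) after culture and 0.46 in fresh cells (adjusted p = 0.417 there; change 2.85, adjusted p = 0.000991). Lhfp had log2 levels of 8.19 and 8.10 in the Treg arrays and 5.37 and 4.80 in the Teff arrays, a difference of 3.06 ± 0.24 (SE; adjusted p = 3.20e-05) and a fresh difference of 0.31 (change 2.75, adjusted p = 0.000898). The receptor gene Gpr33 was dim in Teff cells, with log2 levels of 7.57 and 7.56 in the Treg arrays and 4.34 and 4.75 in the Teff arrays, and it differed by 3.02 ± 0.21 after culture and -0.10 in fresh cells. Hgf, which encodes hepatocyte growth factor, had log2 levels of 7.49 and 7.07 in the Treg arrays and 3.99 and 4.70 in the Teff arrays, again dim in Teff cells, with 2.93 ± 0.37 after culture and 0.94 before it.

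Other members of these 25 have known roles in signalling and cell defence. Serpinb9, the inhibitor of granzyme B, had log2 levels of 8.09 and 8.00 in the Treg arrays and 5.07 and 5.77 in the Teff arrays, 6.18-fold apart (difference 2.63 ± 0.29 SE, adjusted p = 0.000263, fresh 0.37). Dusp4, a phosphatase of MAP kinases, had log2 levels of 8.78 and 8.34 in the Treg arrays and 6.08 and 5.95 in the Teff arrays, with a difference of 2.55 ± 0.22 (SE; adjusted p = 5.86e-05). Klrg1, an inhibitory receptor of short-lived effector and tissue Treg cells, had log2 levels of 7.52 and 7.46 in the Treg arrays and 5.01 and 4.97 in the Teff arrays. Its difference of 2.50 ± 0.27 was below the fresh 4.29 (change -1.78, adjusted p = 0.0117). Trp53i11 and Enah, an actin regulator, had differences of 2.68 ± 0.30 and 2.51 ± 0.33, against 0.01 and -0.16 in fresh cells. Ly96, the partner of Toll-like receptor 4, had log2 levels of 8.24 and 7.55 in the Treg arrays and 5.38 and 5.16 in the Teff arrays and the widest error among the 25, 2.63 ± 0.51 (SE; adjusted p = 0.00779). In 8 of the 25, Myo3b, Cnih2, Naip6 and Gbp2b among them, one group was dim. Socs2, a feedback inhibitor of cytokine signalling, differed by 2.49 ± 0.34 in the row used and by 1.34 ± 0.18 in its other row.

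Among TNF receptors and costimulatory genes, 12 of 24 measured members were higher in Treg cells (50%) and 1 lower (4.17%), with a median log2 difference of 0.74, against 5 higher and 2 lower in fresh cells. In the brightest bin, which holds 15 of these 24 genes, 23.9% of all genes were higher and 3.88% lower. Tnfrsf9 (4-1BB), a receptor induced by T cell receptor signalling, had log2 levels of 12.26 and 12.27 in the Treg arrays and 10.16 and 10.04 in the Teff arrays, 4.47-fold apart (difference 2.16 ± 0.18 SE, adjusted p = 4.35e-05). Tnfrsf8 (CD30) had log2 levels of 10.55 and 10.55 in the Treg arrays and 8.46 and 8.61 in the Teff arrays, 4.04-fold apart (difference 2.02 ± 0.25 SE, adjusted p = 0.000599). Cd27, the receptor of CD70, had log2 levels of 10.28 and 10.03 in the Treg arrays and 7.45 and 7.99 in the Teff arrays, and a difference of 2.44 ± 0.29 (SE; adjusted p = 0.000541), against -0.32 in fresh cells (change 2.75, adjusted p = 0.00241). Tnfrsf18 (GITR) differed by 1.79 ± 0.40 (SE; adjusted p = 0.0158), a call that was lost whichever of the 4 arrays was left out. The adaptor genes Traf1, Traf4 and Traf2, which carry these receptors' signals, had log2 differences of 1.42 ± 0.23, 1.17 ± 0.22 and 0.59 ± 0.17. The member lower in Treg cells was Cd40lg, described with the cytokines. Costimulatory counts were 15 higher and 2 lower once the OX40L-JAG1 Teff pair was left out, 8 and 1 after quantile normalization, and 5 and 1 for calls that held without each of the 4 arrays in turn.

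Genes of the NF-kappaB pathway, on which TNF receptors and CD28 converge, were called in the same direction. Among subunits and inhibitors, 10 of 17 measured members were higher in Treg cells (58.8%) and 0 lower (0%), with a median log2 difference of 0.77, against 1 higher and 1 lower in fresh cells. Of the 17 genes, 13 lie in the brightest bin, where 23.9% of all genes were higher and 3.88% lower. Rel, which encodes the subunit c-Rel known for its part in Treg development, had log2 levels of 9.42 and 9.56 in the Treg arrays and 7.21 and 7.68 in the Teff arrays, a difference of 2.04 ± 0.21 (SE; adjusted p = 0.000192) and a change from fresh cells of 1.43 (adjusted p = 0.0113). Rela (p65) had log2 levels of 9.88 and 9.92 in the Treg arrays and 8.02 and 8.43 in the Teff arrays, with a difference of 1.68 ± 0.19 (SE; adjusted p = 0.000375) and a change from fresh cells of 2.19 (adjusted p = 0.000886). The kinase gene Map3k8 and the atypical inhibitor Bcl3 differed by 1.73 ± 0.33 and 1.66 ± 0.29. Feedback inhibitors were on the same side: Nfkbia by 1.04 ± 0.22 and Tnfaip3 by 1.03 ± 0.24. NF-kappaB counts were 11 higher and 0 lower once the OX40L-JAG1 Teff pair was left out, 4 and 0 after quantile normalization, and 2 and 0 for calls that held without each of the 4 arrays in turn.

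IL-2 signals through its receptor chains, the kinases JAK1 and JAK3, and STAT5, and then induces SOCS inhibitors. Of this list, 12 of 20 measured members were higher in Treg cells (60%) and 0 lower (0%), with a median log2 difference of 1.04, against 4 higher and 1 lower in fresh cells. The list has 18 of its 20 genes in the brightest bin, where 23.9% of all genes were higher and 3.88% lower. Il2rb, the shared chain of the IL-2 and IL-15 receptors, had log2 levels of 12.28 and 12.08 in the Treg arrays and 10.96 and 11.04 in the Teff arrays and a difference of 1.18 ± 0.25 (SE; adjusted p = 0.0114). Stat5a had log2 levels of 8.02 and 8.07 in the Treg arrays and 6.55 and 6.84 in the Teff arrays, a difference of 1.35 ± 0.19 (SE; adjusted p = 0.00120) and a change from fresh cells of 1.61 (adjusted p = 0.00341). After quantile normalization its adjusted p was 0.0976. Stat5b differed by 1.21 ± 0.20 and Jak1 by 0.81 ± 0.18. The targets Cish, Pim1 and Socs3 differed by 1.78 ± 0.19, 1.17 ± 0.19 and 1.12 ± 0.22. Cish, a target of STAT5, had log2 levels of 9.72 and 9.81 in the Treg arrays and 7.88 and 8.10 in the Teff arrays. Il2 itself was dim in all 4 arrays, at log2 levels of 2.58 and 2.65 in the Treg arrays and 2.94 and 3.13 in the Teff arrays, with an adjusted p of 0.242. IL-2 and STAT5 counts were 15 higher and 0 lower once the OX40L-JAG1 Teff pair was left out, 6 and 1 after quantile normalization, and 5 and 0 for calls that held without each of the 4 arrays in turn.

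Immediate early and activation genes followed the same direction. Here 12 of 26 measured members were higher in Treg cells (46.2%) and 0 lower (0%), against 3 higher and 0 lower in fresh cells, and the median log2 difference was 0.70. Of the 26 genes, 15 lie in the brightest bin, where 23.9% of all genes were higher and 3.88% lower. Fos, a subunit of AP-1, had log2 levels of 9.28 and 9.10 in the Treg arrays and 6.92 and 7.09 in the Teff arrays and a difference of 2.19 ± 0.24 (SE; adjusted p = 0.000252). Jun, its partner, had log2 levels of 10.05 and 9.71 in the Treg arrays and 8.01 and 7.91 in the Teff arrays, a difference of 1.92 ± 0.24 (SE; adjusted p = 0.000601) and a change from fresh cells of 2.45 (adjusted p = 0.00150). The T cell receptor targets Nr4a3 and Nr4a1 differed by 2.10 ± 0.26 and 1.66 ± 0.20, and the early activation antigen Cd69 by 1.09 ± 0.30. Activation counts were 14 higher and 0 lower once the OX40L-JAG1 Teff pair was left out, 7 and 1 after quantile normalization, and 7 and 0 for calls that held without each of the 4 arrays in turn.

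Among T helper transcription factors, 12 of 29 measured members were higher in Treg cells (41.4%) and 0 lower (0%). The interaction test called the signed difference higher than in fresh cells for 12 (41.4%) and lower for 1 (3.45%). Over all genes it called 10.1% and 2.94%, and in the brightest bin 27.0% and 4.91%. In the brightest bin, which holds 18 of these 29 genes, 23.9% of all genes were higher and 3.88% lower. Tox, a chromatin factor of chronically stimulated T cells, had log2 levels of 7.50 and 7.64 in the Treg arrays and 5.52 and 5.25 in the Teff arrays, 4.54-fold apart (difference 2.18 ± 0.18 SE, adjusted p = 4.35e-05, change from fresh cells 1.79, adjusted p = 0.00203). Gata3, which directs the Th2 programme and is also used by Treg cells, had log2 levels of 9.56 and 9.52 in the Treg arrays and 8.08 and 8.37 in the Teff arrays, with a difference of 1.31 ± 0.21 (SE; adjusted p = 0.00321). It was thus higher in the cells with the lower Il4 and Il13. Stat3, Ikzf3 and Runx1 differed by 1.19 ± 0.19, 0.95 ± 0.17 and 0.91 ± 0.26. Tbx21, which directs Th1 cells, had a difference of -0.06 ± 0.21 (SE; adjusted p = 0.881) and Rora one of 0.28 ± 0.18 (SE; adjusted p = 0.346). Among follicular helper genes, 7 of 16 measured members were higher in Treg cells (43.8%) and 2 lower (12.5%), and 7 of the 16 lie in the brightest bin. The receptor Cxcr5, which guides cells to follicles, had log2 levels of 6.94 and 6.78 in the Treg arrays and 5.20 and 4.70 in the Teff arrays and a difference of 1.91 ± 0.27 (SE; adjusted p = 0.00141), and the factor Bcl6 differed by 1.00 ± 0.20, while the 2 lower members were the cytokines Il21 and Il4. Follicular helper counts were 7 higher and 4 lower once the OX40L-JAG1 Teff pair was left out, 5 and 2 after quantile normalization, and 2 and 2 for calls that held without each of the 4 arrays in turn. Transcription factor counts were 14 higher and 2 lower once the OX40L-JAG1 Teff pair was left out, 3 and 1 after quantile normalization, and 5 and 0 for calls that held without each of the 4 arrays in turn.

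Coinhibitory receptors were not uniform. Of these, 6 of 16 measured members were higher in Treg cells (37.5%) and 0 lower (0%), against 6 higher and 2 lower in fresh cells, and besides Ctla4, Nt5e and Entpd1 they included Tigit, Cd200 and Cd96 with log2 differences of 1.26 ± 0.29, 0.79 ± 0.17 and 1.23 ± 0.33. The brightest bin, with 23.9% of its genes higher and 3.88% lower, holds 10 of the 16. Pdcd1 (PD-1) had log2 levels of 7.14 and 7.13 in the Treg arrays and 6.84 and 6.85 in the Teff arrays and a difference of 0.29 ± 0.28 (SE; adjusted p = 0.541). Lag3 had log2 levels of 8.45 and 8.30 in the Treg arrays and 8.73 and 8.73 in the Teff arrays and a difference of -0.35 ± 0.19 (SE; adjusted p = 0.263). These last 2 receptors were not called. Coinhibitory counts were 7 higher and 0 lower once the OX40L-JAG1 Teff pair was left out, 4 and 0 after quantile normalization, and 1 and 0 for calls that held without each of the 4 arrays in turn.

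Among receptors for cytokines, 12 of 28 measured members were higher in Treg cells (42.9%) and 3 lower (10.7%), whereas in fresh cells the counts were 4 higher and 7 lower. For the same genes, the interaction test called the signed difference higher than in fresh cells for 12 (42.9%) and lower for 2 (7.14%). Over all genes it called 10.1% and 2.94%, and in the brightest bin 27.0% and 4.91%. In the brightest bin, which holds 20 of these 28 genes, 23.9% of all genes were higher and 3.88% lower. Ifngr1, a chain of the interferon-gamma receptor, had log2 levels of 11.51 and 11.62 in the Treg arrays and 9.89 and 9.95 in the Teff arrays and a difference of 1.64 ± 0.19 (SE; adjusted p = 0.000422). Il6st, the signalling chain of the IL-6 family, had log2 levels of 9.26 and 9.40 in the Treg arrays and 7.46 and 7.98 in the Teff arrays and a difference of 1.61 ± 0.30 (SE; adjusted p = 0.00658). Tgfbr1, Il4ra and Il12rb2 differed by 1.28 ± 0.28, 1.03 ± 0.24 and 0.96 ± 0.28, the last against -1.68 in fresh cells. Il23r, the receptor of Th17 cells, Tgfbr3 and Csf2rb were lower in Treg cells, by differences of -1.26 ± 0.22, -1.10 ± 0.26 and -1.27 ± 0.33, and Il23r and Csf2rb were dim in Treg cells. Receptor counts were 14 higher and 5 lower once the OX40L-JAG1 Teff pair was left out, 6 and 2 after quantile normalization, and 2 and 0 for calls that held without each of the 4 arrays in turn.

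TGF-beta, the suppressive cytokine of Treg cells, is held latent by GARP and freed by integrins. Tgfb1 had log2 levels of 10.55 and 10.48 in the Treg arrays and 8.95 and 9.16 in the Teff arrays, so the Treg arrays lay above the Teff arrays. The difference of 1.46 ± 0.18 (SE; adjusted p = 0.000564), or 2.75-fold, was -0.26 in fresh cells (change 1.72, adjusted p = 0.00203). In this pathway 6 of 22 measured members were higher in Treg cells (27.3%) and 2 lower (9.09%). The brightest bin, with 23.9% of its genes higher and 3.88% lower, holds 9 of the 22. Besides Tgfb1, Tgfbr1, Lrrc32 and Itgb8, the integrin chain Itgav and the signal carrier Smad4 were higher, by 0.88 ± 0.20 and 0.63 ± 0.17. The inhibitor Smad6, dim in both groups, differed by -0.94 ± 0.20. Ebi3 and Il12a, which encode the chains of IL-35, were both higher in Treg cells. Ebi3 had log2 levels of 7.84 and 7.86 in the Treg arrays and 6.42 and 6.56 in the Teff arrays (difference 1.36 ± 0.34 SE, adjusted p = 0.0243). Il12a had log2 levels of 6.49 and 6.03 in the Treg arrays and 4.22 and 4.53 in the Teff arrays, dim in Teff cells (difference 1.88 ± 0.27 SE, adjusted p = 0.00148, fresh 0.19). TGF-beta pathway counts were 9 higher and 4 lower once the OX40L-JAG1 Teff pair was left out, 2 and 1 after quantile normalization, and 3 and 0 for calls that held without each of the 4 arrays in turn.

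Several T helper cytokines were higher in Teff cells. Of the effector cytokine list, 5 of 33 measured members were higher in Treg cells and 9 lower, against 4 higher and 2 lower in fresh cells and a background of 9.03% and 2.89%, with a median log2 difference of -0.43. Il4, the Th2 cytokine, had log2 levels of 5.24 and 5.07 in the Treg arrays and 8.53 and 8.76 in the Teff arrays. Both Teff arrays lay above both Treg arrays, and the difference of -3.49 ± 0.28 (SE; adjusted p = 3.24e-05) is a 11.2-fold higher intensity in Teff cells. It was -0.76 in fresh cells (change -2.73, adjusted p = 0.00185) and -0.72 after OX40L and JAG1. Il13, its neighbour and fellow Th2 cytokine, had log2 levels of 6.41 and 6.47 in the Treg arrays and 8.88 and 9.02 in the Teff arrays, 5.68-fold higher in Teff cells (difference -2.51 ± 0.34 SE, adjusted p = 0.00116), against 0.38 in fresh cells (change -2.88, adjusted p = 0.00423). Ifng, the Th1 cytokine, had log2 levels of 5.43 and 5.45 in the Treg arrays and 7.54 and 7.74 in the Teff arrays, 4.59-fold higher in Teff cells (difference -2.20 ± 0.21 SE, adjusted p = 0.000102), against -0.14 in fresh cells (change -2.06, adjusted p = 0.00190). These 3 cytokines thus separated the cell types after stimulation with no called difference before it. CD8 T, NK and innate-like T cells also make interferon-gamma, and some of their markers went the same way. Lower in Treg cells were 3 of 10 CD8 and NK markers and 2 of 4 markers of gamma-delta and innate-like T cells. None was higher, and the median differences of the lists were -0.72 and -1.03. The part of these cells in the Ifng difference was not tested.

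Of the genes of effector Treg cells, 11 of 22 measured members were higher in Treg cells (50%) and 2 lower (9.09%), against 11 higher and 0 lower in fresh cells. The brightest bin, with 23.9% of its genes higher and 3.88% lower, holds 15 of the 22. Effector Treg counts were 12 higher and 3 lower once the OX40L-JAG1 Teff pair was left out, 4 and 3 after quantile normalization, and 3 and 1 for calls that held without each of the 4 arrays in turn. The 2 lower members were Il10 and Fgl2. Il10, a cytokine of effector Treg cells and of activated T helper cells, turned its direction. After stimulation its log2 levels were 7.42 and 7.51 in the Treg arrays and 8.96 and 9.30 in the Teff arrays, with the Teff arrays above the Treg arrays (difference -1.67 ± 0.25 SE, adjusted p = 0.00179, 3.17-fold). Before it, the log2 levels were 6.17 and 6.19 in fresh Treg cells and 3.88 and 4.14 in fresh Teff cells (difference 2.17, adjusted p = 0.000506). The change between the conditions was -3.84 (adjusted p = 0.000108). Fgl2, a secreted suppressive protein, turned as well, from 1.18 in fresh cells to -0.90 ± 0.21 (SE; adjusted p = 0.0173). Il17a had log2 levels of 3.96 and 3.66 in the Treg arrays and 5.15 and 5.31 in the Teff arrays, dim in Treg cells, with a difference of -1.42 ± 0.30 (SE; adjusted p = 0.0111), a call lost whichever of the 4 arrays was left out. Il17f and Il21, also dim in Treg cells, differed by -1.09 ± 0.21 and -1.21 ± 0.19, and Csf2, dim in both, by -0.90 ± 0.26. Cd40lg, the T cell's signal to B cells and dendritic cells, had log2 levels of 6.84 and 6.91 in the Treg arrays and 8.68 and 8.67 in the Teff arrays, 3.49-fold higher in Teff cells (difference -1.80 ± 0.30 SE, adjusted p = 0.00372, fresh -2.09). Lif and Csf1 were higher in Treg cells, by 1.05 ± 0.20 and 0.72 ± 0.20. Tnf had log2 levels of 8.33 and 8.31 in the Treg arrays and 7.16 and 7.68 in the Teff arrays and a difference of 0.90 ± 0.31 (SE; adjusted p = 0.0890). Cytokine counts were 7 higher and 16 lower once the OX40L-JAG1 Teff pair was left out, 2 and 8 after quantile normalization, and 2 and 6 for calls that held without each of the 4 arrays in turn.

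**Figure D3:**
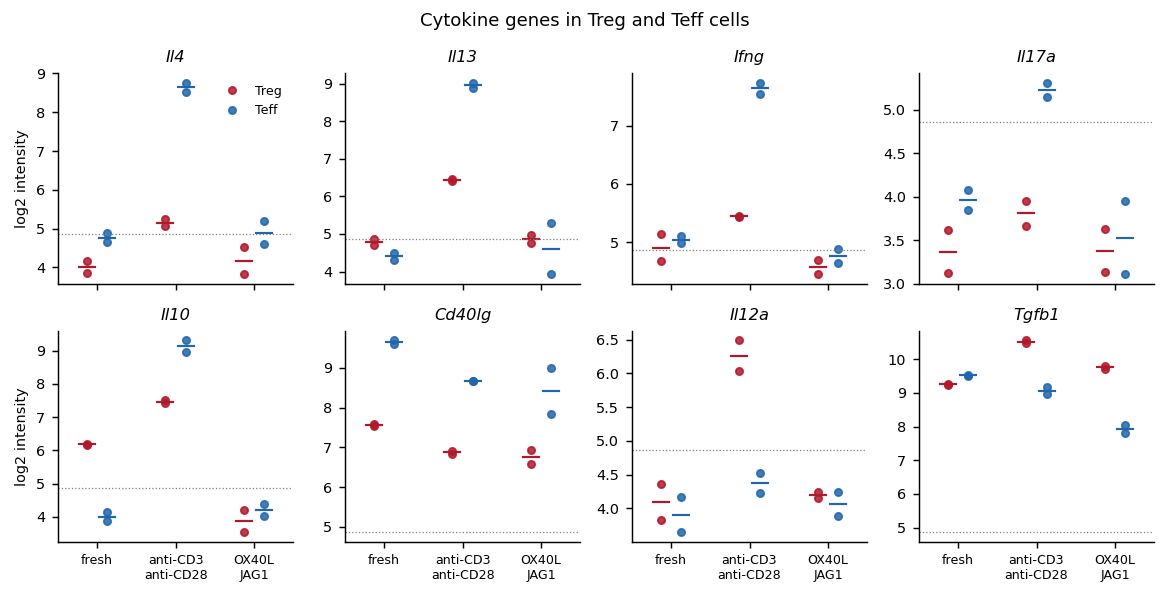
Log2 intensity (y axis, its own range in each panel) of 8 cytokine genes in fresh, anti-CD3-CD28 and OX40L-JAG1 cells (x axis). Points are single arrays, short lines are means of 2 arrays, and the dotted line marks the lowest array median of 4.87. Il4, Il13 and Ifng are high in Teff cells after anti-CD3 and anti-CD28 and lower elsewhere. Il13 also lies above the dotted line in the stimulated Treg arrays, at 6.41 and 6.47. For Il10 the order of Treg and Teff cells is reversed between fresh and stimulated cells.

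Chemokine receptors differed in both directions. Cxcr6, the receptor of CXCL16 on tissue-homing effector cells, had log2 levels of 7.20 and 7.004 in the Treg arrays and 10.30 and 10.30 in the Teff arrays. The difference of -3.20 ± 0.35 (SE; adjusted p = 0.000285) is 9.18-fold in favour of Teff cells, beside -2.35 in fresh cells. Ccr10, a skin-homing receptor, differed by -1.27 ± 0.26. The other called members of the receptor list were higher in Treg cells, among them Cxcr3 and Ccr8 with differences of 0.92 ± 0.20 and 1.11 ± 0.19. They included S1pr4, a lipid receptor gene kept in this list though its product is not a chemokine receptor, with 0.96 ± 0.23. Of the receptor list, 6 of 21 measured members were higher in Treg cells (28.6%) and 2 lower (9.52%). The brightest bin, with 23.9% of its genes higher and 3.88% lower, holds 8 of the 21. Of the ligands, 0 of 19 measured members were higher in Treg cells (0%) and 2 lower (10.5%): Ccl5 had log2 levels of 7.26 and 7.19 in the Treg arrays and 9.10 and 9.12 in the Teff arrays (difference -1.88 ± 0.54 SE, adjusted p = 0.0465), and Ccl4 had 4.88 and 5.57 in the Treg arrays and 6.50 and 6.68 in the Teff arrays (difference -1.36 ± 0.37 SE, adjusted p = 0.0366). Both ligand calls were lost whichever of the 4 arrays was left out, and 10 of the 19 ligands were dim in both groups. Ccl5, Ccl4 and Cxcr6 are also expressed by CD8 T, NK and innate-like T cells, some of whose markers were lower in Treg cells as given with Ifng. The part of those cells in these differences was not tested. Chemokine receptor counts were 8 higher and 3 lower once the OX40L-JAG1 Teff pair was left out, 4 and 1 after quantile normalization, and 1 and 1 for calls that held without each of the 4 arrays in turn. Ligand counts were 0 higher and 7 lower once the OX40L-JAG1 Teff pair was left out, 0 and 3 after quantile normalization, and 0 and 0 for calls that held without each of the 4 arrays in turn.

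Of the cytotoxic list, 4 of 17 measured members were higher in Treg cells (23.5%) and 0 lower (0%), with a median log2 difference of -0.03. The brightest bin, with 23.9% of its genes higher and 3.88% lower, holds 7 of the 17. The granule enzyme gene Gzmb had log2 levels of 12.16 and 12.27 in the Treg arrays and 11.75 and 11.86 in the Teff arrays (difference 0.41 ± 0.26 SE, adjusted p = 0.335), and Gzma had 11.47 and 11.33 in the Treg arrays and 11.30 and 11.22 in the Teff arrays (difference 0.14 ± 0.65 SE, adjusted p = 0.917). The 4 higher members were the death ligand Tnfsf10 (TRAIL), with log2 levels of 7.29 and 7.38 in the Treg arrays and 5.39 and 5.92 in the Teff arrays, the serpins Serpinb9 and Serpinb6b, and the lysosomal membrane gene Lamp1, with differences of 1.68 ± 0.23, 2.63 ± 0.29, 1.76 ± 0.30 and 0.78 ± 0.19. Cytotoxic counts were 5 higher and 4 lower once the OX40L-JAG1 Teff pair was left out, 3 and 2 after quantile normalization, and 2 and 0 for calls that held without each of the 4 arrays in turn.

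Genes known to be low in Treg cells kept that direction where they were called: 0 of 17 measured members were higher in Treg cells (0%) and 7 lower (41.2%), against 0 higher and 9 lower in fresh cells. Pde3b, a cyclic nucleotide phosphodiesterase that Foxp3 is known to repress, had log2 levels of 6.95 and 6.92 in the Treg arrays and 9.11 and 9.36 in the Teff arrays. Its difference of -2.30 ± 0.30 (SE; adjusted p = 0.000907) was smaller than the fresh -4.40 (change 2.10, adjusted p = 0.00988). Themis, a regulator of T cell receptor signal strength, had log2 levels of 8.11 and 8.19 in the Treg arrays and 9.38 and 9.53 in the Teff arrays, with a difference of -1.30 ± 0.21 (SE; adjusted p = 0.00303) and a fresh one of -2.22. The other called members were the cytokines Il4, Ifng, Il21 and Csf2, and Cd40lg. Treg-low counts were 3 higher and 9 lower once the OX40L-JAG1 Teff pair was left out, 0 and 6 after quantile normalization, and 0 and 6 for calls that held without each of the 4 arrays in turn.

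Among interferon-response genes, 7 of 30 measured members were higher in Treg cells (23.3%) and 1 lower (3.33%). Of these 30 genes, 22 lie in the brightest bin, where the shares of all genes were close to these, 23.9% and 3.88%. The 1 lower gene was Ifi204, a DNA sensor of the PYHIN family, with log2 levels of 5.49 and 5.37 in the Treg arrays and 7.83 and 7.75 in the Teff arrays. Its difference of -2.36 ± 0.24 (SE; adjusted p = 0.000156) was 5.14-fold in favour of Teff cells and differed from the fresh difference by -2.59 (adjusted p = 0.00112). Usp18, the negative regulator of interferon signalling, went the other way, with log2 levels of 9.39 and 9.40 in the Treg arrays and 7.66 and 7.71 in the Teff arrays and a difference of 1.71 ± 0.21 (SE; adjusted p = 0.000576). The GTPase genes Gbp7 and Gbp3 and the nuclease gene Isg20 were also higher in Treg cells, by 1.65 ± 0.24, 1.38 ± 0.34 and 1.54 ± 0.30. Interferon-response counts were 17 higher and 2 lower once the OX40L-JAG1 Teff pair was left out, 3 and 1 after quantile normalization, and 2 and 1 for calls that held without each of the 4 arrays in turn.

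Small nucleolar RNA genes made a large share of what was lower in Treg cells. These short RNAs guide the modification of ribosomal and spliceosomal RNA and are mostly cut from introns of host genes. Of 79 such genes, Cajal body RNA genes included, 73 were lower (92.4%) and 0 higher, which is 11.4% of all 642 lower genes. The median log2 level over the 79 genes was 9.41 and 9.62 in the Treg arrays and 12.46 and 12.48 in the Teff arrays, and the median difference was -2.75. In fresh cells the order was the other way round: 11.92 and 11.97 in Treg cells and 10.90 and 11.00 in Teff cells, a median difference of 0.80, with 34 of the genes higher and 1 lower. After OX40L and JAG1 the direction was that of the stimulated cells: 11.09 and 10.61 in Treg cells and 12.62 and 12.47 in Teff cells, a median difference of -1.40. The interaction test with fresh cells called 75 of the 79. After quantile normalization 68 were lower, with the OX40L-JAG1 Teff pair left out 74, and 67 were called without each of the 4 arrays in turn. How far short RNAs were kept by the RNA extraction of each sample was not tested.

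Genes that hold a small nucleolar RNA gene within their span were in turn prominent among the 25 largest falls, of which 12 are such genes. Rps20, a ribosomal protein gene, had log2 levels of 6.41 and 6.33 in the Treg arrays and 10.78 and 10.72 in the Teff arrays, a difference of -4.38 ± 0.37 (SE; adjusted p = 4.60e-05) and a fresh difference of 2.27. A second row of the array for Rps20 gave -0.81 (adjusted p = 0.174 over all rows). Ptcd3, a mitochondrial translation gene, had log2 levels of 8.78 and 8.55 in the Treg arrays and 12.90 and 12.52 in the Teff arrays in the row used, and its other row differed by 0.33. Snhg17 and Snhg6, noncoding host genes, differed by -3.69 ± 0.27 and -2.39 ± 0.51, and the Snhg6 call was lost whichever of the 4 arrays was left out. After OX40L and JAG1, Rps20, Ptcd3, Snhg17 and Snhg6 differed by -2.74, -2.36, -2.83 and -0.18, the last without a call. Eif4a2, a translation initiation helicase, had log2 levels of 9.77 and 9.66 in the Treg arrays and 12.68 and 12.57 in the Teff arrays, while its other 2 rows differed by -0.19 and -2.25. Ep400 and Nop56, with differences of -2.30 ± 0.20 and -2.39 ± 0.26 in the rows used, each had another row that was higher in Treg cells, by 0.85 (adjusted p = 0.0248) and 1.10 (adjusted p = 0.0165). The 10 of these 12 genes with several rows had 22 further rows, of which 2 were called higher and 7 lower, with a median of -0.79. Of these rows, 10 belong to Taf1d alone, with 4 of the lower calls, and a pair of them holds identical values. The other 12 rows gave 2 higher and 3 lower calls, with a median of -0.20. A fall of these hosts therefore holds for the row used, and which part of the gene a row's probes match was not tested. In all, 393 genes hold a small nucleolar RNA gene without being one, these 12 included. Of the 393, 50 were higher (12.7%) and 23 lower (5.85%), with a median log2 difference of 0.10.

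**Figure D4:**
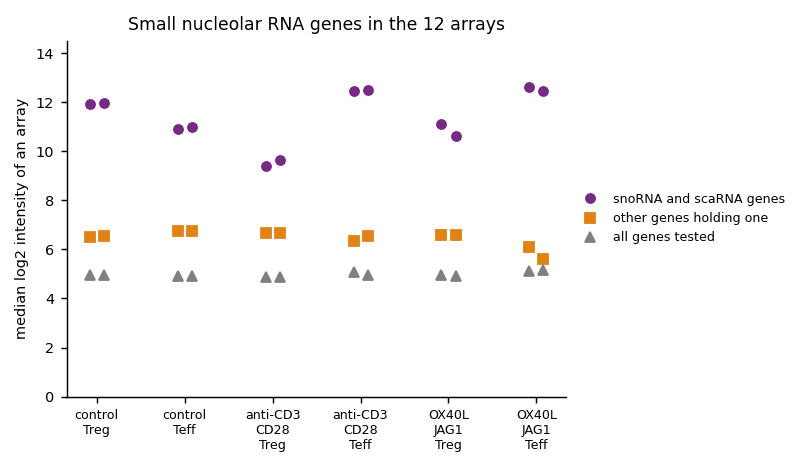
Median log2 intensity (y axis) of 79 small nucleolar and Cajal body RNA genes, of 393 other genes that hold one, and of all 22180 genes in each of the 12 arrays, by group (x axis). The small RNA genes are at 9.41 and 9.62 in the anti-CD3-CD28 Treg arrays and at 12.46 and 12.48 in the Teff arrays. Medians of the genes that hold one run from 6.34 to 6.66 in those arrays and from 5.60 to 6.75 over all 12. Medians of all genes run from 4.87 to 5.17 over the 12 arrays.

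Stimulated T cells divide, and the counts for proliferation genes varied widely with the setting. Among mitotic genes, 11 of 27 measured members were higher in Treg cells (40.7%) and 0 lower (0%). Plk1, a mitotic kinase, had log2 levels of 9.67 and 9.49 in the Treg arrays and 7.68 and 8.00 in the Teff arrays and a difference of 1.74 ± 0.19 (SE; adjusted p = 0.000254). Aurkb, Kif20a and Tpx2, which build and check the spindle, differed by 1.27 ± 0.18, 1.32 ± 0.31 and 1.18 ± 0.19. Mki67, the common proliferation marker, had log2 levels of 11.09 and 11.11 in the Treg arrays and 9.99 and 10.14 in the Teff arrays and a difference of 1.03 ± 0.39 (SE; adjusted p = 0.115). Of DNA replication genes, 2 of 26 measured members were higher in Treg cells (7.69%) and 0 lower (0%), a share of higher genes below the 9.03% of all genes. Among G1 cyclins and CDK inhibitors, 5 of 16 measured members were higher in Treg cells (31.2%) and 1 lower (6.25%), and the lower one was the inhibitor Cdkn2a, with log2 levels of 5.38 and 5.47 in the Treg arrays and 6.78 and 6.41 in the Teff arrays (difference -1.17 ± 0.21 SE, adjusted p = 0.00552). The brightest bin, with 23.9% of its genes higher, holds 26 of the 27 mitotic, 20 of the 26 replication and 11 of the 16 cyclin and inhibitor genes. Mitosis counts were 24 higher and 0 lower once the OX40L-JAG1 Teff pair was left out, 3 and 0 after quantile normalization, and 3 and 0 for calls that held without each of the 4 arrays in turn. Replication counts were 12 higher and 0 lower once the OX40L-JAG1 Teff pair was left out, 1 and 0 after quantile normalization, and 1 and 0 for calls that held without each of the 4 arrays in turn. Cyclin and inhibitor counts were 10 higher and 2 lower once the OX40L-JAG1 Teff pair was left out, 2 and 2 after quantile normalization, and 0 and 0 for calls that held without each of the 4 arrays in turn.

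Activated T cells are known to raise glycolysis and lipid synthesis. Of glycolysis and hypoxia genes, 6 of 18 measured members were higher in Treg cells (33.3%) and 0 lower (0%). All 18 lie in the brightest bin, where 23.9% of all genes were higher and 3.88% lower. Slc2a1, the glucose transporter GLUT1 that activated T cells induce, had log2 levels of 11.07 and 10.84 in the Treg arrays and 9.62 and 9.77 in the Teff arrays and a difference of 1.26 ± 0.21 (SE; adjusted p = 0.00360), lost without Treg replicate 1. Hif1a and Gapdh differed by 1.17 ± 0.24 and 1.20 ± 0.20. Of cholesterol and fatty acid synthesis genes, 5 of 22 measured members were higher in Treg cells (22.7%) and 0 lower (0%), against 0 higher and 3 lower in fresh cells. In the brightest bin, which holds 21 of these 22 genes, 23.9% of all genes were higher and 3.88% lower. Scd1, which makes unsaturated fatty acids, had log2 levels of 8.91 and 9.36 in the Treg arrays and 7.51 and 7.69 in the Teff arrays, a difference of 1.53 ± 0.31 (SE; adjusted p = 0.0102) and a fresh one of -1.40 (change 2.93, adjusted p = 0.00251). Its call was lost after quantile normalization and without Teff replicate 1 or Treg replicate B. Glycolysis counts were 8 higher and 0 lower once the OX40L-JAG1 Teff pair was left out, 6 and 1 after quantile normalization, and 0 and 0 for calls that held without each of the 4 arrays in turn. Lipid synthesis counts were 12 higher and 0 lower once the OX40L-JAG1 Teff pair was left out, 3 and 0 after quantile normalization, and 2 and 0 for calls that held without each of the 4 arrays in turn.

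Quiescence and recirculation genes are expressed by resting T cells and lost by activated ones. Of these, 4 of 24 measured members were higher in Treg cells (16.7%) and 0 lower (0%). Fresh cells had 0 higher and 8 lower. The interaction test called the signed difference higher than in fresh cells for 13 (54.2%) and lower for 0 (0%), which need not be a wider separation. Over all genes it called 10.1% and 2.94%, and in the brightest bin 27.0% and 4.91%. Their median difference was 0.36 after stimulation and -0.72 in fresh cells. In the brightest bin, which holds 16 of these 24 genes, 23.9% of all genes were higher and 3.88% lower. Over all genes of that bin the medians were 0.44 and -0.18. Foxo1, the factor that sustains quiescence, had log2 levels of 9.16 and 9.13 in the Treg arrays and 7.49 and 7.57 in the Teff arrays and a difference of 1.61 ± 0.18 (SE; adjusted p = 0.000326), against -0.94 in fresh cells (change 2.55, adjusted p = 0.000218). S1pr1, the receptor for exit from lymphoid organs, had log2 levels of 9.86 and 9.99 in the Treg arrays and 8.78 and 8.54 in the Teff arrays and a difference of 1.26 ± 0.24 (SE; adjusted p = 0.00733), against -0.99 in fresh cells (change 2.26, adjusted p = 0.00251). The S1pr1 call was lost without Teff replicate B or either Treg array. Ccr7, Klf2 and Il7r, of the same programme, were not called, with differences of -0.09 ± 0.19, -0.03 ± 0.38 and 0.45 ± 0.19. Quiescence counts were 10 higher and 3 lower once the OX40L-JAG1 Teff pair was left out, 4 and 2 after quantile normalization, and 1 and 0 for calls that held without each of the 4 arrays in turn.

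Of genes of the T cell receptor complex and its first signalling steps, 27 were measured. After stimulation 9 were higher in Treg cells (33.3%) and 1 lower (3.70%), and in fresh cells 0 were higher and 3 lower. The interaction test called the signed difference higher than in fresh cells for 12 (44.4%) and lower for 0 (0%). Over all genes it called 10.1% and 2.94%, and in the brightest bin 27.0% and 4.91%. In the brightest bin, which holds all these 27 genes, 23.9% of all genes were higher and 3.88% lower. Cd5, an inhibitory receptor set by signal strength, had log2 levels of 11.05 and 10.81 in the Treg arrays and 9.43 and 9.40 in the Teff arrays and a difference of 1.51 ± 0.18 (SE; adjusted p = 0.000437). Lcp2, the adaptor SLP-76, had log2 levels of 11.9998 and 11.98 in the Treg arrays and 10.56 and 10.42 in the Teff arrays and a difference of 1.50 ± 0.17 (SE; adjusted p = 0.000333). Themis was the 1 lower member. Among adhesion genes, 8 of 21 measured members were higher in Treg cells (38.1%) and 1 lower (4.76%), with Selplg, the selectin ligand PSGL-1, at log2 levels of 12.44 and 12.33 in the Treg arrays and 10.72 and 10.75 in the Teff arrays (difference 1.65 ± 0.17 SE, adjusted p = 0.000197, change from fresh cells 2.29, adjusted p = 0.000308). Of the 21 adhesion genes, 12 lie in the brightest bin. Receptor-proximal counts were 15 higher and 3 lower once the OX40L-JAG1 Teff pair was left out, 6 and 2 after quantile normalization, and 3 and 1 for calls that held without each of the 4 arrays in turn. Adhesion counts were 9 higher and 5 lower once the OX40L-JAG1 Teff pair was left out, 3 and 3 after quantile normalization, and 3 and 0 for calls that held without each of the 4 arrays in turn.

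**Figure D5:**
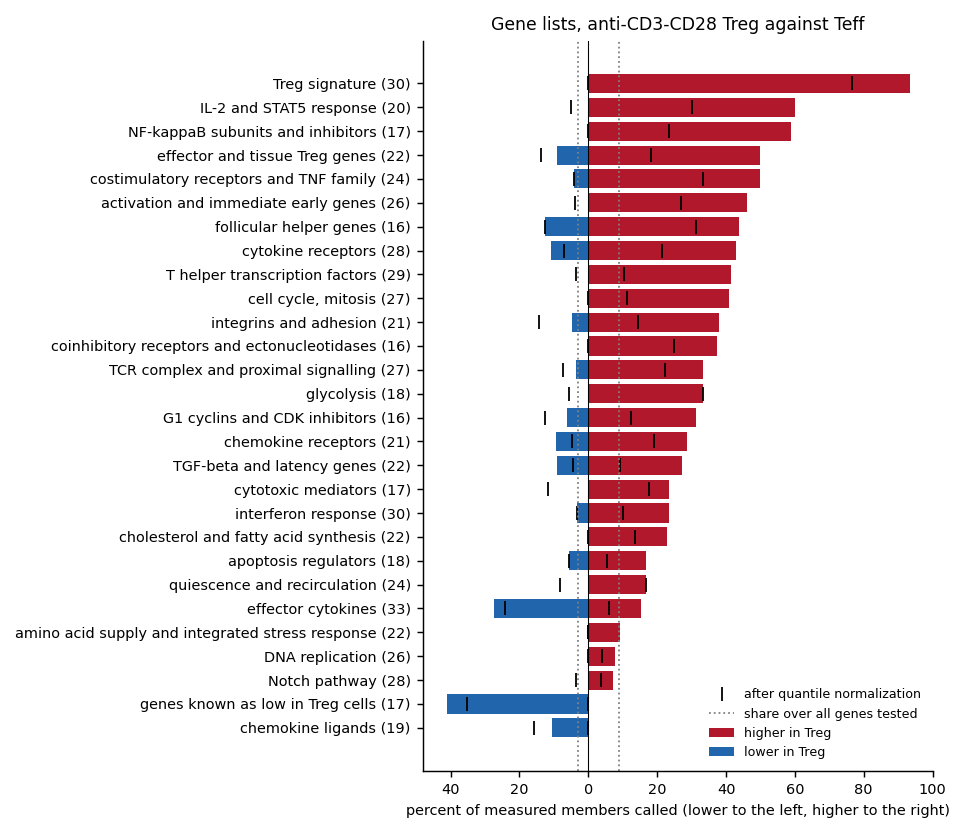
Percent of the measured members of each gene list other than markers of other cells and sex-linked genes (size in brackets) called higher in Treg cells (red, to the right) and lower (blue, to the left) after anti-CD3 and anti-CD28. Black ticks give the same after quantile normalization, and dotted lines the shares over all 22180 genes, 9.03% and 2.89%. The signature bar reaches furthest to the right, and of the lists drawn the bars of Treg-low genes and effector cytokines reach furthest to the left.

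Markers of other cells were compared, since a sorted fraction can hold them. In bulk RNA, fewer cells of a type and less RNA per cell cannot be told apart. Markers of CD8 T and NK cells gave 0 of 10 higher and 3 lower (1 higher and 6 lower with the OX40L-JAG1 Teff pair left out, 0 and 2 after quantile normalization), with a mean log2 level of 4.91 and 4.97 in the Treg arrays and 5.68 and 5.76 in the Teff arrays. Klrd1, which encodes CD94, had log2 levels of 3.82 and 3.83 in the Treg arrays and 6.81 and 6.61 in the Teff arrays, dim in Treg cells, a difference of -2.88 ± 0.56 (SE; adjusted p = 0.00743) and a fresh difference of -3.10. Its call was lost without Teff replicate 1 or either Treg array. Cd8a had log2 levels of 5.22 and 4.92 in the Treg arrays and 5.78 and 6.06 in the Teff arrays and a difference of -0.85 ± 0.26 (SE; adjusted p = 0.0609). Of 4 markers of gamma-delta and innate-like T cells, none was higher and 2 were lower (0 higher and 3 lower with the OX40L-JAG1 Teff pair left out, 0 and 2 after quantile normalization), with a mean log2 level of 4.36 and 4.35 in the Treg arrays and 5.15 and 5.32 in the Teff arrays. Zbtb16, the factor PLZF of natural killer T cells, had log2 levels of 4.80 and 4.48 in the Treg arrays and 6.18 and 6.15 in the Teff arrays and a difference of -1.53 ± 0.22 (SE; adjusted p = 0.00158).

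Basophils and mast cells are known makers of IL-4 and IL-13, so their markers stand beside those cytokines. The mean log2 level of 11 such markers was 3.72 and 3.56 in the Treg arrays and 4.21 and 4.19 in the Teff arrays, 7 were dim in both groups, none was higher in Treg cells and 2 were lower (0 higher and 4 lower with the OX40L-JAG1 Teff pair left out, 0 and 2 after quantile normalization). Mcpt8, a basophil protease, had log2 levels of 3.24 and 3.57 in the Treg arrays and 5.14 and 4.86 in the Teff arrays (difference -1.60 ± 0.28 SE, adjusted p = 0.00493), and Cpa3 had 4.05 and 4.36 in the Treg arrays and 5.84 and 5.52 in the Teff arrays (difference -1.47 ± 0.38 SE, adjusted p = 0.0282). Their part in the Il4 and Il13 differences was not tested. Of 16 B cell and plasma cell markers, 8 were dim in both groups, 1 was higher in Treg cells and 2 lower (2 higher and 7 lower with the OX40L-JAG1 Teff pair left out, 0 and 1 after quantile normalization), at mean log2 levels of 4.70 and 4.75 in the Treg arrays and 5.14 and 5.17 in the Teff arrays. The chains of MHC class II went opposite ways: H2-Ab1 had log2 levels of 9.02 and 8.94 in the Treg arrays and 7.79 and 7.85 in the Teff arrays and a difference of 1.16 ± 0.33 (SE; adjusted p = 0.0440), a call lost whichever of the 4 arrays was left out and after quantile normalization (0.74, adjusted p = 0.0809), and H2-Aa had 4.52 and 4.75 in the Treg arrays and 5.98 and 6.40 in the Teff arrays and a difference of -1.56 ± 0.33 (SE; adjusted p = 0.0114). Of 19 markers of monocytes, macrophages and dendritic cells, 10 were dim in both groups, none was higher and 3 lower (1 higher and 7 lower with the OX40L-JAG1 Teff pair left out, 0 and 3 after quantile normalization), at mean log2 levels of 5.24 and 5.22 in the Treg arrays and 5.64 and 5.66 in the Teff arrays. One of the 3 was Cd209a, a dendritic cell lectin, with log2 levels of 9.33 and 8.93 in the Treg arrays and 11.52 and 11.37 in the Teff arrays (difference -2.31 ± 0.34 SE, adjusted p = 0.00174, fresh 1.80), whose other row was dim at 3.42 and 3.44 in the Treg arrays and 4.16 and 3.99 in the Teff arrays. Neutrophil markers, 8 of 15 dim in both groups, gave 2 higher and none lower (2 higher and 5 lower with the OX40L-JAG1 Teff pair left out, 1 and 0 after quantile normalization), at 4.46 and 4.54 in the Treg arrays and 4.53 and 4.76 in the Teff arrays, and Ltf, which encodes lactoferrin, had log2 levels of 6.46 and 6.51 in the Treg arrays and 4.50 and 4.40 in the Teff arrays (difference 2.03 ± 0.27 SE, adjusted p = 0.000909). Among 9 erythroid and platelet markers, with 1 higher and 5 lower with the OX40L-JAG1 Teff pair left out, 1 and 1 after quantile normalization, Car1 and Car2 were lower, by differences of -2.57 ± 0.40 and -2.23 ± 0.53, and the factor Gata1 was higher, by 1.96 ± 0.24, at mean log2 levels of 5.45 and 5.31 in the Treg arrays and 6.04 and 6.14 in the Teff arrays.

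The same contrast in fresh cells shares no array with this one, and called 297 genes higher in Treg cells (1.34%) and 556 lower (2.51%). Of the genes higher in fresh Treg cells, 102 were higher after stimulation too, which is 34.3% of the fresh set and 5.09% of the stimulated set, and 18 of these differed in size by the interaction test. Of the genes lower in fresh Treg cells, 46 were lower again, 8.27% of the fresh set and 7.17% of the stimulated set. More genes turned over: 72 higher in fresh Treg cells were lower after stimulation (24.2% and 11.2%), of which 34 were small nucleolar RNA genes and 10 hosts of one, and 135 lower in fresh Treg cells were higher after it (24.3% and 6.74%). Over all genes tested, 9.03% were higher and 2.89% lower after stimulation, and in the brightest bin 23.9% and 3.88%. How far these overlaps follow the level of the genes was not tested. The interaction test called 2904 genes, 2251 with a higher difference after stimulation (10.1%) and 653 with a lower one (2.94%).

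Fresh cells were not cultured, so culture and antibody act together in this comparison. The sets of arrays also differed in genes of the Y chromosome. Uty had log2 levels of 2.70 and 2.90 in stimulated Treg cells and 3.86 and 3.72 in stimulated Teff cells, against 6.20 to 6.62 in fresh cells and 5.33 to 7.99 after OX40L and JAG1. Eif2s3y had 3.42 to 3.78 in the 4 stimulated arrays, 6.75 to 7.07 in fresh cells and 6.67 to 8.85 after OX40L and JAG1. Between conditions, the sex of the animals and the treatment cannot be told apart. Within the stimulated cells neither gene was called (adjusted p = 0.138 and 0.749). Of 8 measured sex-linked genes, Xist and X-linked partners of Y genes included, 1 was higher in Treg cells and 0 lower (3 higher and 1 lower with the OX40L-JAG1 Teff pair left out, 1 and 0 after quantile normalization), and it was the X-linked demethylase gene Kdm6a, with a difference of 1.28 ± 0.33 (SE; adjusted p = 0.0301).

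Against the OX40L-JAG1 culture, which gave 9110 calls of its own (41.1%) with that uneven Teff pair, the difference of differences called 59 genes higher (0.266%) and 144 lower (0.649%). This count ran from 3 to 6941 as single arrays were left out, so the values are given as descriptions. In that culture's own contrast, 5457 of 22180 genes were higher in Treg cells and 3653 lower. Higher and lower there were 15 and 0 of 17 NF-kappaB genes, 16 and 1 of 24 costimulatory genes and 15 and 0 of 20 IL-2 and STAT5 genes. For 27 receptor-proximal, 24 quiescence and 33 effector cytokine genes the counts were 19 and 1, 16 and 1, and 8 and 7. Il4 and Il13 differed by -3.49 and -2.51 after anti-CD3 and anti-CD28 and by -0.72 and 0.26 after OX40L and JAG1. Lhfp, Hgf and Gpr33 had log2 differences of 3.06, 2.93 and 3.02 after anti-CD3 and anti-CD28, and of -0.26, -0.63 and -0.45 after OX40L and JAG1. Foxp3 differed by 5.47 and 4.20 in the 2 cultures, with no overlap between Treg and Teff arrays in either.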

How the data were processed

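Each of the 12 samples is 1 Affymetrix Mouse Gene 2.0 ST array of total RNA. The authors deposited log2 values that, per the submitters' processing notes, come from RMA (no version stated), and these went into the tests without further scaling, grouped by sample title. Of 41345 rows, 23521 had exactly 1 gene symbol in the array annotation, and the 1814 with several and 16010 with none were left out. Where a gene had several rows (1082 genes), its brightest row on average was kept, which left 22180 genes. The annotation's build was not stated in the sources read; positions and promoter windows are RefSeq's, of GRCm38.p6.

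limma 3.58.1 in R 4.3.3 fitted 1 mean per group over all 12 arrays (6 residual degrees of freedom) with eBayes, on the log2 scale. Tests are two-sided, with Benjamini-Hochberg adjustment over all genes within a contrast and a threshold of 0.05. The interaction is the Treg minus Teff difference after stimulation minus that in another condition. Tables were made with Python 3.11.15, pandas 2.3.3 and numpy 2.4.6, and the fit was tested on simulated data. The number of arrays limits the precision. Genes named are the 25 largest rises and falls whose groups do not overlap, the 10 and 5 largest of the interactions in each direction, and members of 37 lists (680 genes, 621 measured). Predicted genes, numbered small RNA genes, olfactory and vomeronasal receptors and receptor segments were not named among the largest. Members and lists were chosen with earlier results of these data known. Alternatives were the replicate block, quantile normalization, equal array medians, other shrinkage, array weights, dim genes left out, the mean of a gene's rows, each row on its own (chosen after seeing the data), a 2-fold minimum, the OX40L-JAG1 Teff arrays left out, only the arrays compared, and each array left out in turn.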

Additional observations from a re-analysis of the deposited data

Results flagged for a closer look

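Each result here is a log2 difference of Treg minus Teff cells that differed between conditions by the interaction test of limma, with an adjusted p under 0.05. The 10 genes whose difference was most raised after anti-CD3 and anti-CD28 relative to fresh cells were H2-Ab1 3.96, Gpr33 3.13, Ehd3 3.11, Mt2 3.10, Gatc 3.07, Nedd4l 3.01, Cers6 3.00, Pdlim1 2.97, Uprt 2.97 and Il17rb 2.96, each value the change in difference. For H2-Ab1, a chain of MHC class II, the log2 levels were 4.65 and 4.85 in fresh Treg cells and 7.53 and 7.56 in fresh Teff cells, against 9.02 and 8.94 in the Treg arrays and 7.79 and 7.85 in the Teff arrays after stimulation. Ehd3, an endocytic recycling gene, differed by -3.06 in fresh cells and 0.05 after stimulation, so its change comes from the fresh difference. Mt2, a metallothionein gene, had log2 levels of 6.28 and 5.47 in fresh Treg cells and 8.22 and 7.96 in fresh Teff cells, and 10.002 and 9.94 in the Treg arrays and 9.15 and 9.02 in the Teff arrays after stimulation. Il17rb, the receptor of IL-25, had a difference of -0.75 in fresh cells and 2.21 after stimulation.

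The 10 most lowered were Med24 -6.70, Rps20 -6.64, Ptcd3 -5.70, Wdyhv1 -5.43, Snhg17 -5.12, Rps18 -5.11, Rprl2 -4.34, H2bc12 -4.33, Ppan -4.27 and H2bc3 -4.23. Of these, 6 hold a small nucleolar RNA gene, and 8 were higher in fresh Treg cells. The histone genes H2bc12 and H2bc3 differed by 2.33 and 2.34 in fresh cells and by -2.00 and -1.89 after stimulation, the first without a call (adjusted p = 0.0549).

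Relative to the OX40L-JAG1 culture, whose Teff pair was uneven, the 5 most raised were Ltf 4.60, Hgf 3.56, Gpr33 3.47, Lhfp 3.32 and Cyp11a1 2.87, and the 5 most lowered were Kdm5d -2.93, Sytl2 -2.92, Il4 -2.77, Il13 -2.77 and Bhlhe40 -2.68. Cyp11a1, which makes pregnenolone from cholesterol, had log2 levels of 9.65 and 9.48 in the Treg arrays and 7.33 and 7.16 in the Teff arrays, and 3.93 and 4.22 in fresh Treg cells and 4.34 and 4.08 in fresh Teff cells. Kdm5d lies on the Y chromosome, and its log2 levels were 2.74 and 2.57 in the Treg arrays and 3.56 and 3.00 in the Teff arrays, 7.31 and 7.69 in OX40L-JAG1 Treg cells and 5.74 and 4.65 in OX40L-JAG1 Teff cells. Bhlhe40, a transcription factor of cytokine-producing T cells, differed by -0.10 after anti-CD3 and anti-CD28 and by 2.58 after OX40L and JAG1.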

How the results depend on the processing

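The anti-CD3-CD28 contrast called 2645 genes, and 6072 had an unadjusted p under 0.05. It called 1382 with a 2-fold minimum, 1116 after quantile normalization, 6113 with array weights, 6362 with the OX40L-JAG1 Teff pair left out and 5131 with only the arrays compared, and from 688 to 6362 with single arrays left out, where a lone array is assumed to vary like the other groups. Equal medians (3231), dim genes left out (2953), other shrinkage (2715), the mean of rows (2520) and each row on its own (2676) stayed within 1.5 times.

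The replicate block gave 2471 calls, against 748 of 853 in fresh cells, 9030 of 9110 in the OX40L-JAG1 contrast, 2691 of 2904 in the interaction with fresh cells and 124 of 203 in that with OX40L-JAG1. The difference of replicate B minus replicate 1 was correlated over genes between each pair of groups. These 15 correlations ran from -0.0693 to 0.182. The labels do not say whether same-numbered samples share animals or cultures, and low correlations of this kind cannot settle it.

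The fresh contrast called 4167 genes with array weights, 3220 without the OX40L-JAG1 Teff arrays, 3115 with only its arrays, and 248 to 3220 with single arrays left out. The OX40L-JAG1 contrast called 4880 with a 2-fold minimum, 4013 after quantile normalization, 3137 with weights, 1079 with only its arrays, and 5043 to 12824 with single arrays left out. The interaction with fresh cells called 1071 after quantile normalization, 7344 with weights, 6869 without the OX40L-JAG1 Teff arrays, 7022 with only its arrays, and 971 to 6869 with single arrays left out. That with OX40L-JAG1 called 426 with dim genes left out, 18 with weights, 4 with only its arrays, and 3 to 6941 with single arrays left out. The cause was not tested.

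Of 232 called genes that were named or in a list, none reversed under the alternatives in which they were followed. The test of each row on its own was not among those, and in it another row of Ep400 and of Nop56 was called higher in Treg cells. Quantile normalization took 88 under the threshold, the replicate block 8, the omission of Treg replicate 1 127, of Treg replicate B 114, of Teff replicate 1 118 and of Teff replicate B 73, and the omission of the OX40L-JAG1 Teff arrays none. Signal near the background limits genes under the lowest array median.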

Other observations

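Counts for further pathway lists between stimulated Treg and Teff cells depended on the setting. In the Notch pathway, which the other culture of the series addresses, 2 of 28 measured members were higher in Treg cells (7.14%) and 0 lower (0%), against a background of 9.03% and 2.89%. These were the ligand gene Jag1, with log2 levels of 5.40 and 5.24 in the Treg arrays and 4.07 and 4.15 in the Teff arrays, dim in Teff cells, and the coactivator gene Maml1, with 8.03 and 7.93 in the Treg arrays and 6.90 and 7.07 in the Teff arrays, and their differences were 1.21 ± 0.23 and 1.00 ± 0.19. Notch counts were 9 higher and 2 lower once the OX40L-JAG1 Teff pair was left out, 1 and 1 after quantile normalization, and 0 and 0 for calls that held without each of the 4 arrays in turn.

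Among apoptosis regulators, 3 of 18 measured members were higher in Treg cells (16.7%) and 1 lower (5.56%), against a background of 9.03% and 2.89%. The brightest bin, with 23.9% of its genes higher and 3.88% lower, holds 9 of the 18. Casp8, which starts death receptor signalling, had log2 levels of 10.61 and 10.45 in the Treg arrays and 9.25 and 9.24 in the Teff arrays (difference 1.29 ± 0.25 SE, adjusted p = 0.00799), and Bak1, a pore-forming gene of the BCL2 family, differed by 1.02 ± 0.25. Bcl2a1a, a survival gene with near-identical copies that the array may not separate, was lower in Treg cells, by -1.37 ± 0.38, and was higher in fresh Treg cells, by 1.22. Of genes for amino acid supply and the integrated stress response, 2 of 22 measured members were higher in Treg cells (9.09%) and 0 lower (0%), namely Sesn2 and Aldh18a1 with differences of 1.10 ± 0.25 and 0.81 ± 0.18. That share of higher genes is close to the 9.03% of all genes, and 12 of the 22 lie in the brightest bin. Apoptosis counts were 6 higher and 2 lower once the OX40L-JAG1 Teff pair was left out, 1 and 1 after quantile normalization, and 0 and 0 for calls that held without each of the 4 arrays in turn. Amino acid counts were 5 higher and 0 lower once the OX40L-JAG1 Teff pair was left out, 0 and 0 after quantile normalization, and 0 and 0 for calls that held without each of the 4 arrays in turn.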
